A study of Sus scrofa with 23 samples.

Results

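The libraries described here are kidney cortex RNA libraries from newborn pigs that split by the number in the pig's name. The later-numbered block holds 10 of the 23 libraries of the series (CF7 to CF11, HET19 to HET21, WT22 and WT23), and the earlier-numbered block holds the other 13 (CF1 to CF6, WT12, HET13 to HET15 and WT16 to WT18). The boundary was chosen by the expression values themselves, where the libraries parted on axis 2 of a multidimensional scaling and the gap fell between pig numbers. Differences between the blocks over genes are therefore given as description, without a test. All pigs were newborn, and the labels give CFTR-/- for the CF pigs, CFTR+/- for HET and wild-type for WT. CFTR encodes the chloride channel whose loss causes cystic fibrosis. The earlier block held 6 CF, 3 HET and 4 WT pigs and the later block 5, 3 and 2, which an exact Fisher test of genotype against block did not separate (p = 1). Total RNA was taken from pieces of cortex at a like position with the RNeasy Lipid Tissue Kit and made into libraries with TruSeq Stranded Total RNA and RiboZero. The labels name no litter, date, hour of collection, sex or sequencing run for either block.

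The kidney of a newborn pig is still forming. Nephron progenitors are giving way to filtering glomeruli and to tubules that take up salt, glucose and amino acids, and proximal tubule cells come to burn fatty acids in many mitochondria. Birth also ends the placental supply of sugar, and the newborn draws on stored fuel and then on milk. Kidney cells carry a daily clock as well, and their immediate early genes answer a stimulus within minutes.

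On axis 2 of the scaling (10.6% of the variance), earlier libraries lay between −0.863 and −0.0520 and later ones between 0.293 and 0.916. The scaling used the 500 genes that differed most between each pair of libraries. The members nearest the boundary by number were pig 6 at −0.0590 and pig 7 at 0.657 in the CF series, and pig 18 at −0.0620 and pig 19 at 0.703 in the HET and WT series. Library totals ran from 32901281 to 52952273 estimated counts. The mean total was larger in the later block by 420528 counts (two-sided exact permutation within genotype, p = 0.948, adjusted over 2 tests 0.948). Mean fragment length, which kallisto estimates for each library, was 144, 147 and 153 bases in the earlier block (lowest, median and highest) and 142, 148 and 155 in the later one. Its means differed by 0.961 bases (exact permutation p = 0.425, adjusted 0.851). Ribosomal RNA made up 7.14% of the counts of WT12 and at most 0.522% in every other library. Non-coding RNA took 9.96, 11.7 and 12.6% of counts in the earlier block and 9.84, 10.5 and 11.5% in the later one. EIF1AY, a gene of the Y chromosome, passed 1 CPM (counts scaled to library size) in 7 of 13 earlier and 6 of 10 later libraries.

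**Figure D1:**
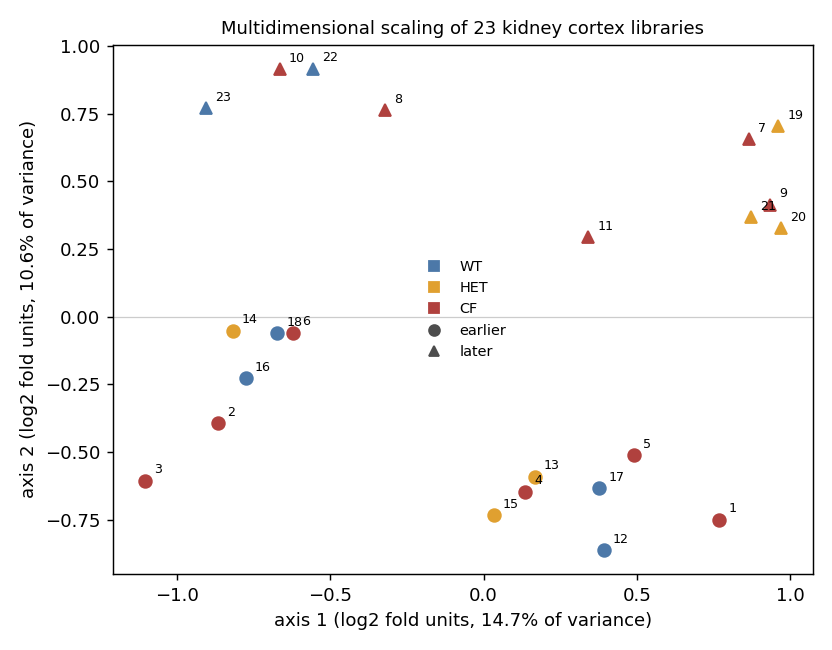
Multidimensional scaling of the 23 libraries, axis 1 against axis 2 in log2 fold units, colour for genotype, marker shape for block and pig number beside each point. Later libraries lie between 0.293 and 0.916 on axis 2, above all earlier ones, because the blocks were selected on this axis.

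The libraries carried the RNA of kidney cortex. In TPM, which scales counts to transcript length and library size, the phosphate transporter SLC34A1 averaged 373 and 484 TPM in the earlier and later blocks, and the endocytic receptors LRP2 and CUBN averaged 334 and 337 TPM and 159.9 and 171 TPM. UMOD of the loop of Henle stood at 193 and 183 TPM. The progenitor gene SIX2 was low at 0.641 and 0.806 TPM. The adrenal enzyme CYP17A1 averaged 0.0615 and 0.0772 TPM, and the muscle actin ACTA1 did not pass the filter on low counts. CFTR lay between 1.83 and 3.67 CPM in the 4 earlier libraries labelled WT and at 2.30 and 1.27 in the later ones. In libraries labelled HET it was 9.40, 12.4 and 17.5 CPM earlier and 13.4, 11.0 and 11.8 later, and in those labelled CF it ran from 12.5 to 23.3 CPM earlier and from 17.1 to 23.5 later. CFTR RNA thus was more abundant under the CF and HET labels than under WT in both blocks. Genotype labels were not checked further and are used here as given. Between blocks its log2 fold was −0.12 ± 0.13 (SE, 10 against 13 libraries, as for all folds below).

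Of 22129 genes kept, 433 were at least 1.5-fold higher in the later block (1.96%) and 761 at least 1.5-fold lower (3.44%), with genotype in the model. The median log2 fold of all genes was −0.00, with the 5th percentile at −0.48 and the 95th at 0.37. In 291 of the 433 and 586 of the 761 the WT, HET and CF pigs each differed in that direction. In 11 genes every later library lay above every earlier one (0.0497%), and in 8 every later library lay below (0.0362%). These shares describe the contrast that placed the boundary, so nothing is read from them. The counts moved with the scale and the filter, to 366 higher and 284 lower on log2 TPM and to 155 and 317 among genes with at least 1 CPM in at least 10 libraries.

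Among the genes higher in all later libraries was SGK1 (chr1:29625786-29753619 in Sscrofa11.1), a kinase induced by corticosteroids that promotes sodium uptake in the distal nephron. SGK1 read 187, 279 and 329 CPM in the earlier block (lowest, median and highest) and 351, 437 and 524 in the later one. Its log2 fold was 0.74 ± 0.09. A pair of proton pump subunits made by acid-handling intercalated cells stood beside it. ATP6V1G3 (chr10:21371302-21394817) read 4.13, 6.13 and 8.50 CPM against 9.55, 10.4 and 12.3 (log2 fold 0.75 ± 0.10). ATP6V0D2 read 15.7, 18.5 and 24.0 against 24.9, 29.4 and 33.8 (log2 fold 0.57 ± 0.08). TOMM20 (chr14:56113087-56127686), the receptor through which proteins enter mitochondria, read 133, 168 and 202 CPM earlier and 219, 247 and 305 later, a log2 fold of 0.58 ± 0.07. In all 4 genes the highest earlier and the lowest later value lay close together. CEL (chr1:272763203-272770259), a lipase activated by bile salts, had the widest fold of the 10 named (1.81 ± 0.20) at low counts, from 0.743, 1.40 and 2.39 CPM earlier to 2.86, 4.18 and 11.6 later, with CF9 highest. The other named genes were the potassium channel gene KCNA4 (0.90), the cytoskeletal gene GAS2 (0.70), TAF1D of the RNA polymerase I machinery (0.42), ZNF473 (0.35) and CNOT10 of the CCR4-NOT deadenylase complex (0.14).

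Among the 8 genes lower in all later libraries, MYRIP, which links Rab27 vesicles to myosin motors, read 7.55, 9.44 and 11.6 CPM earlier and 2.72, 3.94 and 5.87 later (log2 fold −1.21 ± 0.12). MTR, the methionine synthase that uses vitamin B12, was the most abundant of them, at 234, 275 and 324 CPM against 162, 196 and 231 (−0.50 ± 0.07). OAS2, an antiviral enzyme induced by interferon, read 26.7, 39.4 and 213 against 16.01, 20.9 and 23.7 (−1.29 ± 0.30). CF3 held the highest OAS2 value, and without CF3 the fold was −0.82. The rest were the GABA receptor gene GABRG1 (−0.95), the ubiquitin ligase gene SH3RF2 (−0.80), SPIC, a transcription factor of iron-recycling macrophages (−0.52), FILIP1 (−0.31) and the kinesin gene KIF13A (−0.25). Of the 19 genes in both directions, 9 differed by less than 1.5-fold.

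**Figure D2:**
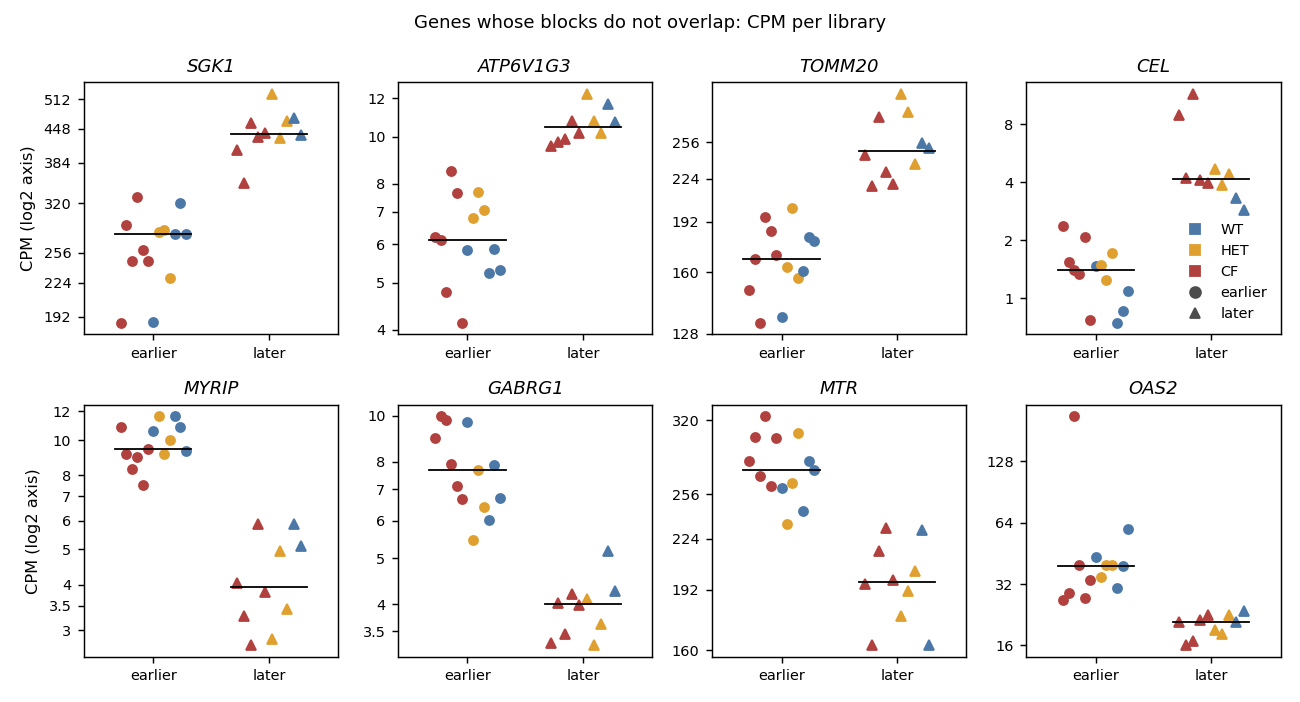
CPM of 8 genes whose blocks do not overlap, 1 point per library on a log2 axis, earlier block left and later block right, colour for genotype, bar at the block median. SGK1 runs from 187 to 329 CPM in the earlier block and from 351 to 524 in the later one.

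All 57 nuclear-encoded respiratory chain genes, which build the complexes that make ATP, had a positive fold (median 0.31 against −0.00 over all genes, from 0.13 to 0.51). The shift was thus small and shared. None reached 1.5-fold and none separated the blocks. Over all genes 1.96% were at least 1.5-fold higher and 0.0497% higher in all later libraries, so nothing is read from these counts. The summed level of the 57 genes was 6078, 7858 and 9736 CPM in the earlier block and 7132, 9794 and 11112 CPM in the later one (lowest, median and highest). WT12, with 7.14% ribosomal RNA, held the earlier minimum here and in the fatty acid oxidation, gluconeogenesis, proximal tubule and ribosomal protein sums. With ribosomal RNA left out the respiratory chain median was 0.30. NDUFA6 of complex I had a log2 fold of 0.51 ± 0.13, UQCRB of complex III 0.45 ± 0.12 and SDHD of complex II 0.44 ± 0.09. Fatty acid oxidation, the main fuel pathway of the proximal tubule, was positive in 26 of 31 genes (median 0.20). Its ECI2, an isomerase for unsaturated fatty acids, read 91.3, 128 and 188 CPM earlier and 161, 197 and 239.7 later (log2 fold 0.53 ± 0.10), and the later library was the higher in 96.2% of pairs. ACADM, the medium-chain dehydrogenase, had 0.41 ± 0.12, while CD36, which takes up fatty acids, had −0.47 ± 0.12.

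Cholesterol synthesis had the largest positive median of the lists, 0.39 over 23 genes. Of these, 21 were positive and 5 at least 1.5-fold higher, against 1.96% of all genes. By genotype the list's median difference of mean log2 CPM was 0.26, 0.91 and 0.26 in WT, HET and CF pigs. SQLE, an oxygen-requiring step, read 16.7, 33.5 and 53.2 CPM earlier and 25.7, 52.7 and 72.9 later (0.68 ± 0.19). The blocks overlapped in it, and the summed list read 853, 1385 and 1803 CPM in the earlier block and 960.3, 1559 and 1960.1 CPM in the later one (lowest, median and highest). Gluconeogenesis and ammonia production was positive in 9 of 10 genes (median 0.18). The list's median difference of mean log2 CPM was 0.34, 0.01 and 0.25 in WT, HET and CF pigs. Its exception was PCK1, the step that commits carbon to glucose, at 107, 313 and 1109 CPM earlier and 155, 348 and 535 later (−0.46 ± 0.35), with HET15 highest. The glucose 6-phosphate transporter SLC37A4 was higher in the later block (0.42 ± 0.10).

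Glycolysis as a whole had a median of −0.04. The lactate transporter SLC16A1 was higher in the later block (0.61 ± 0.14) and LDHA, which makes lactate, lower (−0.57 ± 0.16). Genes that fasting raises through FoxO factors were lower in 15 of 18 cases (median −0.24, and −0.11 in WT and HET pigs alone). They included BCL6 (−0.63 ± 0.14), a repressor active in fasting, FBXO32 (−0.46 ± 0.13), a ubiquitin ligase of muscle wasting, and IRS2 (−0.41 ± 0.13), an adaptor of the insulin receptor. The amino acid response list driven by ATF4 had a median of 0.10, and in WT and HET pigs alone −0.08.

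A technical value moved with the same genes. Across genes, which are not independent replicates, the fold had a Spearman rho of −0.146 with transcript length, and its median was 0.05 in the shortest and −0.04 in the longest of 5 equal groups of genes. With GC content the rho was −0.1135, and the median fold was 0.02 in the lowest and −0.06 in the highest of 5 equal groups. Respiratory chain transcripts are short (median longest transcript 828 bases). So are those of the 82 cytosolic ribosomal proteins, of which 80 had a positive fold (median 0.16), RPS12 among them at 0.34 ± 0.07. The parts of transcript length and GC content in these list medians were not tested.

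Proximal tubule genes were positive in 28 of 40 (median 0.21). SLC22A6, the organic anion transporter that appears as the tubule matures, read 6.00, 16.1 and 32.5 CPM earlier and 11.9, 37.2 and 77.1 later (1.37 ± 0.29). MIOX, which breaks down inositol in the tubule, had 0.65 ± 0.20 (−0.21, 1.04 and 0.90 in WT, HET and CF pigs). But SLC2A2, the list's most abundant gene per length, had −0.24 ± 0.17 (0.54, −0.06 and −0.69 in WT, HET and CF pigs). The loop of Henle and distal tubule had a median of 0.16 over 19 genes, led by the calcium binder PVALB, at 13.2, 25.9 and 47.7 CPM earlier and 29.9, 52.3 and 74.2 later (0.93 ± 0.19). In CF pigs alone the list median was −0.05. The collecting duct list had a median of 0.11 over 20 genes, holding both proton pump subunits above. AQP2, the water channel of principal cells, was lower at −0.62 ± 0.20 (−0.43, 0.14 and −1.08 in WT, HET and CF pigs). Podocyte genes stood at 0.01.

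Progenitor genes did not move as a group, with medians of −0.02 over 23 nephron progenitor genes and 0.03 over 13 ureteric bud and stromal ones. WNT4, which drives progenitors to form the early nephron, read 8.30, 18.5 and 40.5 CPM earlier and 5.88, 10.7 and 21.4 later (−0.74 ± 0.28). Cell cycle genes were positive in 30 of 32 (median 0.22), though unevenly by genotype, at 0.54 in HET, 0.18 in CF and −0.11 in WT pigs. The cyclin CCNB1 had 0.43 ± 0.12. Fetal growth and imprinted genes were lower in 15 of 19 (median −0.15). DLK1, a fetal signal that declines with age, had −0.50 ± 0.18, its imprinted neighbour MEG3 −0.50 ± 0.19 and the growth factor IGF1 −0.49 ± 0.14. In WT, HET and CF pigs DLK1 had differences of −0.29, −1.28 and −0.19 and MEG3 of −0.70, −1.09 and 0.04.

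The circadian clock did not move as a group. Its 22 genes had a median of −0.04, 8 positive and 14 negative, and on log2 TPM the median was 0.03. None had its blocks apart. Over all genes these shares were 0.0497% higher and 0.0362% lower, so nothing is read from none in 22. NR1D1, a repressor whose level swings widely over the day, read 3.30, 5.10 and 10.4 CPM earlier and 1.36, 2.93 and 6.90 later (−0.63 ± 0.19). PER2, a negative limb gene, read 10.3, 15.97 and 23.4 against 14.3, 21.9 and 27.1 (0.39 ± 0.12). These opposed differences were the largest together with BHLHE40 (0.38 ± 0.12) and HLF (−0.31 ± 0.09). The activators ARNTL and CLOCK had 0.16 ± 0.10 and −0.00 ± 0.05. The repressors PER1, PER3, CRY1 and CRY2 had −0.28, −0.02, 0.17 and 0.01, the output genes DBP and TEF 0.02 and −0.22, and NR1D2, a relative of NR1D1, −0.21. Among other clock genes, ARNTL2, NPAS2, NFIL3, RORA, BHLHE41, CIART and CSNK1D lay between −0.31 and 0.09. No promoter of NR1D1, PER2, BHLHE40 or HLF held CACGTG, the E-box to which ARNTL and CLOCK bind, in the 250 bases before the gene start on either strand, and 6.17% of 20632 RefSeq promoters did.

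In the stress programs single pigs stood apart more than the blocks did. Immediate early genes, which cells switch on within minutes of a stimulus, had a median of −0.58. Of these, 13 of 27 were at least 1.5-fold lower, against 3.44% of all genes. Yet their summed level was 517, 596 and 3190.1 CPM in the earlier block and 544, 604 and 812 CPM in the later one (lowest, median and highest). The earlier maximum was CF1, WT12 followed at 1345, and the blocks' medians were nearly the same. By genotype the list had −0.53, 0.17 and −0.40 (WT, HET and CF, median difference of mean log2 CPM). Without CF1 the list median was −0.18. FOS, a part of the AP-1 factor, read 2.23, 3.35 and 417 CPM earlier and 2.53, 3.97 and 61.9 later. Its fold was −2.75 ± 1.498 with all libraries and 0.12 without CF1. FOSB went from −2.48 ± 1.51 to 0.47, EGR1 from −1.34 ± 0.74 to −0.21 and the growth brake BTG2 of the p53 list from −1.22 ± 0.54 to −0.34. CF1 also held 2083 CPM of HSP70.2, an inducible chaperone with close paralogs, against a median of 148 in its block, and the heat shock list as a whole had a median of 0.04.

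Hypoxia genes had a median of 0.00, endoplasmic reticulum stress 0.00, oxidative stress (NRF2) 0.02, p53 −0.06, TGF-beta targets −0.03 and the glucocorticoid response −0.10. The last was −0.00 without CF1, 0.05 by block medians and 0.07 in WT and HET pigs alone. In it SGK1 was higher in the later block, while FAM107A (−0.61 ± 0.15) and the phosphatase gene DUSP1 (−0.70 ± 0.38) were lower, DUSP1 at −0.18 without CF1. HMOX1, the heme-degrading enzyme of the NRF2 list, ran from 29.6 to 868 CPM earlier and from 83.4 to 777 later. Its block difference was 3.25 in WT, −2.02 in HET and 1.30 in CF pigs, in unlike directions. Tubular injury genes were lower in 17 of 21 (median −0.26), with −0.24, 0.00 and −0.29 in WT, HET and CF pigs (median difference of mean log2 CPM). Their sum was 1399.5, 1860.1 and 4661 CPM in the earlier block and 1278, 1675 and 4617 CPM in the later one (lowest, median and highest), with CF5 highest earlier and HET21 and HET20 highest later. Their 3 widest folds were the fibrinogen genes, of which FGB read 1.03, 4.88 and 319.9 CPM earlier, CF5 highest, and 1.05, 3.19 and 119 later, HET20 highest (−1.76 ± 1.36, and −0.47 without CF5). In WT and HET pigs alone FGB turned to 1.65, and with CF against the rest in the model it was 0.05.

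**Figure D3:**
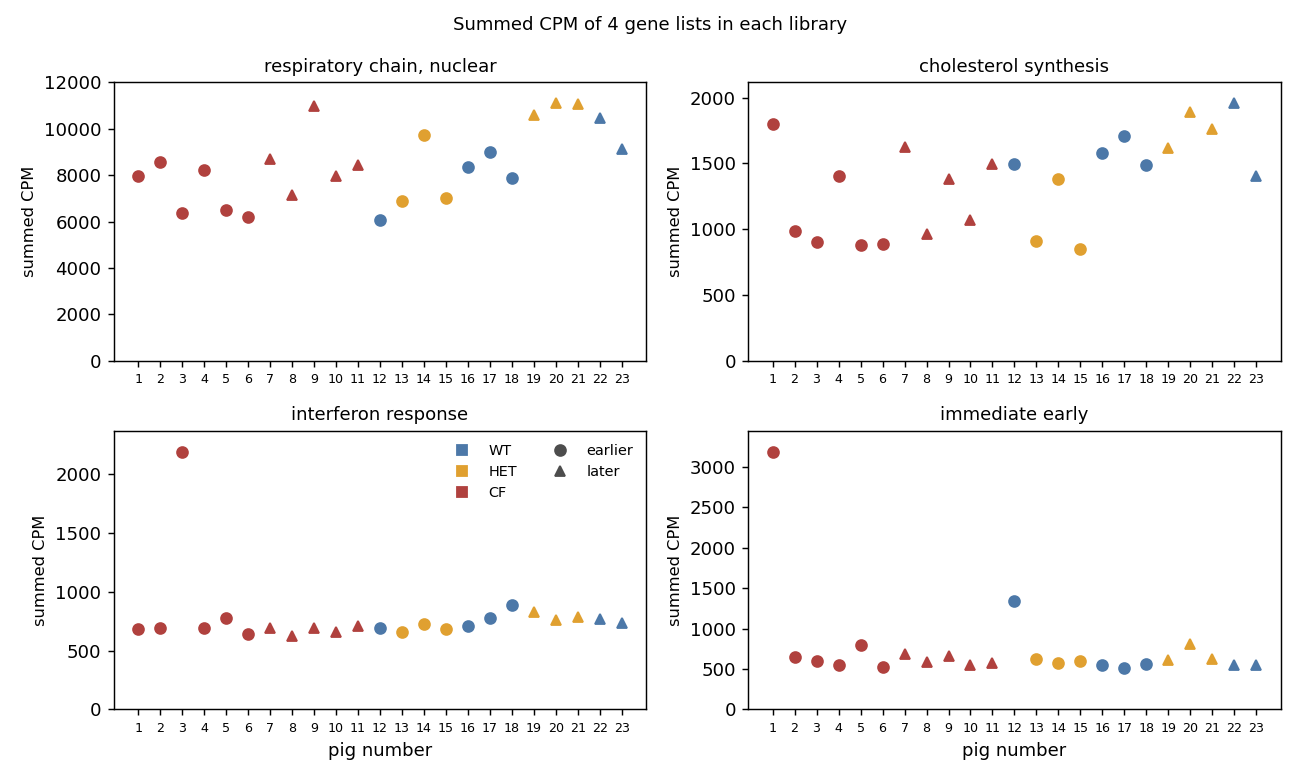
Summed CPM of 4 gene lists in each library, by pig number, colour for genotype and marker shape for block, with axes from 0 (respiratory chain, cholesterol synthesis, interferon response and immediate early genes). The interferon sum of CF3 is 2190.0 CPM and the immediate early sum of CF1 is 3190.1.

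Interferon response genes had a median of −0.52, with 29 of 33 negative, a value that rested largely on 1 pig. At least 1.5-fold lower were 15 of them, against 3.44% of all genes. The summed level was 643, 695 and 2190.0 CPM in the earlier block and 623, 720.5 and 829 CPM in the later one (lowest, median and highest), CF3 being the earlier maximum. Without CF3 the list median was −0.09, and in WT and HET pigs alone it was −0.21. By genotype the median difference of mean log2 CPM was −0.26, −0.02 and −0.44 (WT, HET and CF). RSAD2, an antiviral enzyme, read 0.195, 0.368 and 30.1 CPM earlier and 0.123, 0.258 and 0.589 later (−2.68 ± 0.92, and −0.53 without CF3). MX1, which blocks virus replication, went from −1.46 ± 0.61 to −0.24 without CF3, and OAS1, whose reads may be shared with its paralogs, from −1.33 ± 0.53 to −0.91. OAS1 and OAS2 (−0.82 without CF3) thus both kept larger folds than their list, and of the 2 only OAS2 had its blocks apart.

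Interferon genes are bound by ISGF3 at a pair of GAAA repeats, so the 250 bases before each gene start were searched for GAAA, any 2 bases and GAAA on both strands in RefSeq promoters of Sscrofa11.1. All 33 genes matched a promoter, and 14 held the motif, as did 3.13% of 20632 promoters. The match is a description of the letters. The promoters of OAS2 and RSAD2, the named interferon genes above with the motif, are printed 5′ to 3′ on the strand of the gene and with the motif in capitals, here in its other-strand form of TTTC, any 2 bases and TTTC. They lie at chr14:38847698-38847947 (OAS2) and chr3:128897810-128898059 (RSAD2), both on the minus strand. MX1 and OAS1 held no match.
OAS2: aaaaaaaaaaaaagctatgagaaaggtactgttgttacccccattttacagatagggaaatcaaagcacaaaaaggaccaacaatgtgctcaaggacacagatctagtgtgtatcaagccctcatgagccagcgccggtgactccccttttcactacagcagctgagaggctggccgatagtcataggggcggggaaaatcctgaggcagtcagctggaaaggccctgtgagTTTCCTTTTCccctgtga
RSAD2: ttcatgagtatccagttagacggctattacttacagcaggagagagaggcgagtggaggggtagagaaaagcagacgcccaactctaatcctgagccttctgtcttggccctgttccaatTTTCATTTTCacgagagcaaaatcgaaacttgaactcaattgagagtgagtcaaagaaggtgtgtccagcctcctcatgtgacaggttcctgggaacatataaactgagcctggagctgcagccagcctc

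Apart from neutrophil and interferon genes, immune lists had medians from −0.13 to −0.00 over all pigs, and HET pigs had positive differences where WT pigs had negative ones. The Y-linked gene EIF1AY differed by block in the same directions in WT (−3.67) and HET pigs (3.15). In CF pigs it had 1.16, while these lists had differences from −0.36 to 0.01. The part of sex in these differences was not tested. In bulk RNA, fewer cells of a type and less RNA per cell cannot be told apart. Macrophage genes had a median of −0.10 over 20 genes, among them the complement gene C1QB, the most abundant per length (−0.25 ± 0.11). Lymphocyte genes stood at −0.04 and antigen presentation at −0.00, and toll-like receptor and complement genes at −0.06. By genotype, as the median difference of mean log2 CPM in WT, HET and CF pigs, macrophage genes had −0.26, 0.48 and −0.24, lymphocyte genes −0.22, 0.35 and 0.00 and antigen presentation −0.18, 0.39 and 0.01. The toll-like receptor and complement list had −0.19, 0.27 and −0.16, the neutrophil list −0.19, 1.73 and 0.03 and the inflammation and acute phase list −0.24, 0.64 and −0.36. The 10 neutrophil genes had a median of 0.25 at sums of 7.64 to 48.1 CPM earlier and 13.3 to 84.1 later, HET21 highest, and without HET15 the median was 0.05. Fitted in CF pigs alone it turned to −0.62, and in WT and HET pigs alone it was 0.81. The inflammation and acute phase list stood at −0.13 and turned positive without CF1 (0.07), in WT and HET pigs alone (0.16) and by block medians (0.01). Its SAA3, an acute phase protein, read 0.5679, 4.05 and 6.02 CPM earlier and 0, 0.403 and 9.86 later (−2.54 ± 0.69). The later maximum was HET21, and HET19 and HET20 read 4.45 and 5.68, so the HET pigs did not share the lower level of the other later libraries.

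In the stroma and mural cell list 18 of 21 were negative (median −0.28), and the sum was 4590.4, 5932 and 8822 CPM in the earlier block and 3869, 4994 and 6458 CPM in the later one (lowest, median and highest). CF1 held the earlier maximum, and without it the median was −0.19. By genotype the median difference of mean log2 CPM was −0.59, −0.12 and −0.20 (WT, HET and CF). COL3A1, the fibrillar collagen most abundant per length in that list, read 1409, 1973 and 2798 CPM earlier and 1126, 1466 and 1892 later (−0.41 ± 0.11), with elastin (ELN) at −0.51 ± 0.17 and the smooth muscle gene CNN1 at −0.67 ± 0.22. In the endothelium list 13 of 18 were negative (median −0.16, and −0.08 by block medians). Only 1 was at least 1.5-fold lower, near the share over all genes (3.44%), so nothing is read from it. The sum was 1086, 1294 and 1714 CPM in the earlier block and 978, 1215 and 1389 CPM in the later one (lowest, median and highest). VWF, which endothelium releases to bind platelets, read 7.66, 31.9 and 63.3 against 9.74, 15.6 and 27.8 (−1.11 ± 0.27), and the junction gene CDH5 had −0.39 ± 0.10. The part that the share of stroma in each piece of cortex has in the proximal tubule and respiratory chain medians was not tested.

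Erythroid genes had a median of −0.03, which turned to 0.12 without CF1 and was 0.09 by block medians. Adrenal genes stood at 0.04, adipose at 0.05, urothelium and papilla at −0.22 over 7 genes, and skeletal muscle at −0.18 over 13. The urothelium and papilla median was −0.08 by block medians and turned to 0.13 both among genes with at least 1 CPM in at least 10 libraries and in WT and HET pigs alone. Of the 14 liver genes 9 were at least 1.5-fold lower, against 3.44% of all genes. The liver median was −1.55, also with CPS1 at its bound, and −0.87 without CF5. It was −0.53 by block medians, −0.46 on log2 TPM and −0.01 among genes with at least 1 CPM in at least 10 libraries. By genotype it was 0.20, −0.81 and −0.92 (WT, HET and CF, median difference of mean log2 CPM). ALB, the liver's main plasma protein, read 0.0883, 0.365 and 9.14 CPM earlier, HET15 highest, and 0.0424, 0.193 and 0.465 later. CPS1, of the urea cycle, was 0 in all 10 later libraries and reached 6.66 CPM in HET14, with 4.87 in HET15, so that the earlier mean against 3 counts per library gives a log2 difference of −3.87 or below. APOA1, the most abundant of the list per length, had 0.25 ± 0.14, and the sum was 74.4, 114 and 539 CPM in the earlier block and 97.4, 138 and 261 CPM in the later one (lowest, median and highest).

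**Figure D4:**
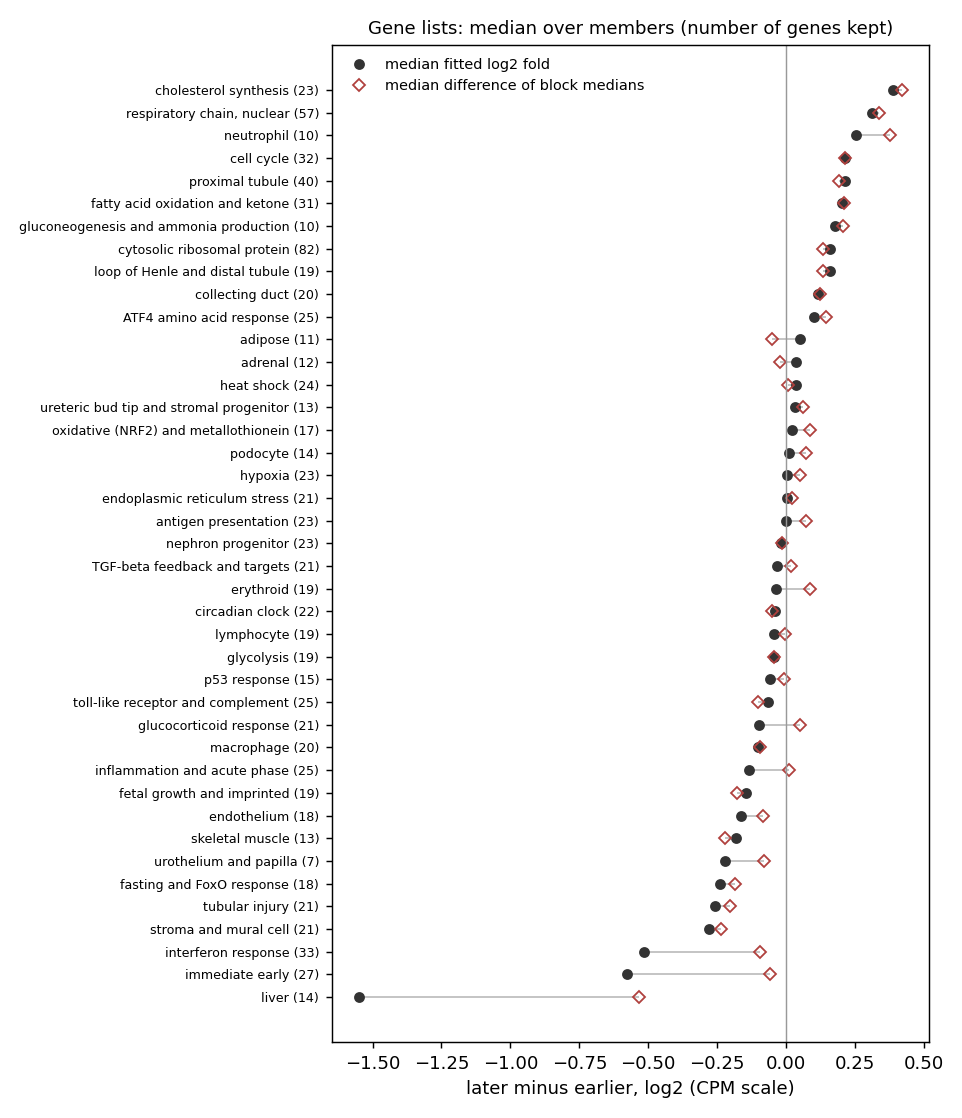
Median over the members of each list of the fitted log2 fold (filled circles) and of the difference of block medians (open diamonds), later minus earlier, with the number of genes kept in brackets. The interferon response median is −0.52 when fitted and −0.09 by block medians, and the respiratory chain medians are 0.31 and 0.34.

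The block difference by genotype is given without a test too, since the boundary was placed by the same values in the CF series and in the HET and WT series. The named-gene rule given below took the 3 genes shown from this comparison. Their block difference in CF pigs differed most from that in the other pigs relative to its error. GPD2, the mitochondrial glycerol phosphate dehydrogenase, ran from 23.2 to 35.6 CPM in earlier CF libraries and from 16.3 to 21.6 in later ones, so that all 5 later CF libraries lay below the earlier. In CF pigs alone 251 of 21002 genes lay lower in all later libraries and 166 higher, so nothing is read from this. In HET GPD2 was 23.6, 29.0 and 23.2 CPM earlier and 39.4, 32.8 and 35.5 later, and in WT 23.5, 25.2, 28.2 and 24.8 earlier and 30.7 and 29.9 later. The differences differed by −0.99 ± 0.15 on the log2 scale. SRGN, a proteoglycan of blood cell granules, ran from 8.92 to 14.7 CPM in earlier CF libraries and from 6.75 to 10.8 in later ones. It read 5.34, 6.72 and 5.17 in earlier and 14.7, 15.4 and 14.7 in later HET libraries, and 7.95, 6.81, 11.3 and 8.20 against 8.94 and 9.22 in WT (−1.33 ± 0.20). SLC16A7, a transporter of pyruvate and lactate, ran from 86.0 to 130.3 in earlier and from 73.4 to 93.0 in later CF libraries, and read 84.4, 81.3 and 85.7 against 119, 129 and 112 in HET and 94.8, 63.5, 76.2 and 68.4 against 111 and 131 in WT (−0.96 ± 0.15).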

How the data were processed

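RNA of kidney cortex from 23 newborn pigs was sequenced. The authors' deposited files give, for each of 77689 RefSeq transcripts of Sscrofa11.1, an estimated count and a TPM value, made with kallisto per the labels. Here estimated counts were summed over 26687 gene symbols and rounded, since 64.0% of transcript values have a fractional part as deposited, with no tolerance. Counts of 22129 genes passed edgeR's filterByExpr over 6 genotype-by-block groups. Log2 folds with standard errors came from edgeR 4.0.16 (TMM, quasi-likelihood) with genotype (3 levels) as covariate. CPM came from TMM-scaled libraries (log2 with a prior count of 2 for the overlap of blocks). Scaling came from limma 3.58.1 plotMDS in R 4.3.3, over 500 genes chosen for each pair of libraries. Since expression placed the boundary, the block contrast carries no p. A gene counted as higher or lower at 1.5-fold.

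The dependence of the block difference on genotype (CF against the mean of HET and WT, edgeR) was planned as a test and is given without p, since the boundary was placed by these values in each series. Tested were genotype against block (exact Fisher), and library total and fragment length (exact permutation within genotype, 138600 arrangements, both sides).

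Members and lists were chosen with earlier results of these data known. Of 44 lists, with 900 of 921 members kept, 1 (histones) had no gene kept. The named-gene rule took at most 12 genes in each direction with blocks apart, a mean of at least 1 CPM and no LOC number, CFTR, all clock genes, up to 3 members with the largest fold size of each other list, at most 5 genes that the genotype comparison called (adjusted p under 0.05), fixed cell type markers and the most abundant member of lists of other cells and tissues. It also took the most abundant proximal tubule, nephron progenitor, macrophage, neutrophil and lymphocyte genes, which the rule as first written did not hold. The other genes named were chosen after their values were seen. Some genes that the rule names are not reported here.

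Alternatives were upper-quartile factors, DESeq2 1.42.0, no or a stricter filter, other genotype terms, log2(TPM + 0.1), EIF1AY or library total as covariates, a prior count of 0.5, CF or other pigs alone, each library left out, and, after seeing the data, sets of libraries left out, rRNA left out, block medians and bounds for genes at 0 in a block. The promoter window was meant to run 50 bases past the gene start, and these were dropped so that no UTR is printed. The interferon motif was added after seeing the data, and results with both windows had been seen. The block fit and the fit of block by genotype were tested on simulated data, and the overlap count and the other tests were not.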

Additional observations from a re-analysis of the deposited data

Results flagged for a closer look

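In 59 of 467 group-by-measure looks 1 library stood far from the others of its genotype and block, by a gap that chance gives in about 1 in 20 looks. That rate holds for normally distributed values, and CPM and sums were used without a log scale. Groups of 4 to 6 libraries could be looked at, so HET pigs and later WT pigs were not. Genes and lists that share members are not independent looks, and some genes were chosen after their values were seen. CF1 had the highest sum of earlier CF libraries over immediate early genes (3190.1 CPM against 531 to 792 in the others), heat shock genes (8975 CPM against 3489 to 5302 in the others), p53 response genes (708 CPM against 444 to 514 in the others), TGF-beta feedback and targets genes (5015 CPM against 1951 to 3019 in the others) and stroma and mural cell genes (8822 CPM against 4590.4 to 6152 in the others). CF1 had the highest sum of earlier CF libraries over erythroid genes (601 CPM against 239 to 279.9 in the others). Its value was also the highest for BHLHE40 (128 CPM against 49.6 to 79.0), DUSP1 (250.5 CPM against 24.7 to 41.2), FOS (417 CPM against 2.52 to 6.397), FOSB (85.9 CPM against 0.369 to 1.27) and EGR1 (314 CPM against 9.98 to 23.1). For earlier CF libraries CF1 was highest in HSP70.2 (2083 CPM against 72.1 to 148), BTG2 (239 CPM against 11.7 to 25.1), PVALB (47.7 CPM against 13.2 to 25.02), CDH5 (122 CPM against 69.9 to 89.4) and CNN1 (12.5 CPM against 3.30 to 6.44). For earlier CF libraries CF1 was highest in ELN (169.9 CPM against 66.3 to 99.6) and DPYS (146 CPM against 24.1 to 47.4). For earlier CF libraries CF1 was lowest in TAF1D (82.0 CPM against 119.6 to 139).

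WT12 had the highest sum of earlier WT libraries over immediate early genes (1345 CPM against 517 to 558 in the others). WT12 had the lowest sum of earlier WT libraries over ATF4 amino acid response genes (967 CPM against 1236 to 1271 in the others). Its value was also the highest for DUSP1 (131 CPM against 26.7 to 27.0), FOS (154 CPM against 2.27 to 4.29), FOSB (30.4 CPM against 0.596 to 1.16), EGR1 (198 CPM against 7.20 to 17.4) and BTG2 (70.5 CPM against 9.31 to 12.4). For earlier WT libraries WT12 was highest in PVALB (40.6 CPM against 25.9 to 27.0). Among earlier WT libraries, WT12 was highest in ribosomal RNA, at 7.14% of its counts against 0.0984 to 0.406% in the others. CF3 had the highest sum of earlier CF libraries over interferon response genes (2190.0 CPM against 643 to 779.9 in the others). Its value was also the highest for OAS2 (213 CPM against 26.7 to 39.5), RSAD2 (30.1 CPM against 0.195 to 0.7103), MX1 (151 CPM against 4.26 to 6.45), OAS1 (34.7 CPM against 4.49 to 7.80) and ACTA1 (0.165 CPM against 0 to 0.0274).

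CF5 had the highest sum of earlier CF libraries over tubular injury genes (4661 CPM against 1550.2 to 2402 in the others) and liver genes (539 CPM against 89.8 to 169 in the others). Its value was also the highest for FGB (319.9 CPM against 3.15 to 29.3) and ACSM2B (673 CPM against 63.2 to 198). For earlier CF libraries CF4 was highest in PER2 (23.4 CPM against 13.5 to 16.9). For earlier CF libraries CF4 was lowest in CFTR (12.5 CPM against 20.5 to 23.3). WT18 had the highest sum of earlier WT libraries over podocyte genes (2245 CPM against 1935 to 1983 in the others). WT18 had the lowest sum of earlier WT libraries over endothelium genes (1086 CPM against 1359 to 1414 in the others). Its value was also the highest for FGB (19.9 CPM against 1.03 to 1.51), CYP17A1 (0.296 CPM against 0.0206 to 0.0491) and ACSM2B (445 CPM against 144 to 186). For earlier WT libraries WT18 was lowest in WNT4 (11.5 CPM against 34.8 to 37.9). Among earlier WT libraries, WT18 was highest in miscellaneous RNA, at 2.84% of its counts against 2.54 to 2.56% in the others.

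For earlier WT libraries WT17 was highest in LYVE1 (10.2 CPM against 2.44 to 3.14). For earlier WT libraries WT16 was highest in DPYS (131 CPM against 27.9 to 29.8). CF9 had the highest sum of later CF libraries over inflammation and acute phase genes (551 CPM against 205 to 261 in the others). Its value was also the highest for MIOX (551 CPM against 241 to 305), ACADM (319 CPM against 199 to 228), LRP2 (6115 CPM against 4510.0 to 4673) and ACSM2B (1372 CPM against 383 to 558). For later CF libraries CF10 was lowest in CLOCK (82.7 CPM against 89.3 to 91.1). Among later CF libraries, CF10 was highest in ribosomal RNA, at 0.239% of its counts against 0.0823 to 0.0988% in the others. For later CF libraries CF11 was highest in FOSB (2.15 CPM against 0.453 to 0.729). For later CF libraries CF11 was lowest in TEF (14.7 CPM against 23.2 to 24.8) and SIX2 (0.589 CPM against 0.980 to 1.10).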

How the results depend on the processing

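No scaling run moved the median of all genes by more than 0.1, and the medians of respiratory chain, cholesterol, fatty acid oxidation, proximal tubule and stromal genes kept their signs under every alternative. Counts past 1.5-fold followed the filter, at 1151 higher and 1918 lower without one and at 155 and 317 with at least 1 CPM in at least 10 libraries. With that stricter filter 7 genes lay higher in all later libraries, and the medians were 0.13 for urothelium and −0.0074 for liver, over fewer genes. On log2 TPM 284 genes were lower and 366 higher, 1 gene lay lower in all later libraries, the liver median was −0.46 and FGG was at 0.082. The cause was not tested. The liver median was −0.86 without genotype, −0.80 with CF against the rest (FGB 0.053) and −0.53 by block medians.

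In CF pigs alone, with fewer libraries to keep apart, 166 genes lay higher and 251 lower in all later libraries. The medians there were −0.62 for neutrophil, −0.053 for loop of Henle and −0.075 for MEG3, the sole gene kept of the nuclear non-coding list. In WT and HET pigs alone 1184 genes were 1.5-fold lower, and 412 lay higher and 274 lower in all later libraries. The medians were −0.16 for ureteric bud, −0.11 for FoxO, −0.077 for ATF4, 0.21 for lymphocyte, 0.10 for toll-like receptor, 0.13 for urothelium, −0.69 for liver and −0.94 for MEG3. FOS was at 0.80, FOSB 0.76, FGB 1.65 and FGG 1.62. The cause of these differences between genotypes was not tested.

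Other sets were chosen after seeing the data. Without CF1, WT12 and HET20, highest in immediate early genes, 21 genes lay higher and 19 lower in all later libraries, DUSP1 was at 0.0078, FOS 0.052 and EGR1 0.012. Without those, CF3, WT18, HET14 and HET15 the numbers were 37 and 51, the liver median was −0.85, DUSP1 0.0035, FOS 0.076, FOSB 0.0033 and EGR1 0.16. Without CF3 and WT18, highest in interferon genes, and without HET14 and HET15, highest in several liver genes, the counts stayed within 1.5 times.

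Leaving out 1 library at a time gave 386 to 554 genes higher and 730 to 902 lower. Genes higher in all later libraries numbered 9 to 16 and those lower 7 to 15, with 15 without WT23, 14 without CF7 and 13 without CF10. The median ran from −0.59 to −0.09 for interferon (without CF3), from −0.67 to −0.18 for immediate early (without CF1), and from −1.89 to −0.87 for liver (without CF5). FOS ran from −3.19 to 0.12 and FOSB from −3.38 to 0.47, both positive without CF1, and FGG from −1.82 to 0.24, positive without CF5. The difference in library totals ran from −535750 (without HET20) to 1692140 (exact permutation p from 0.509 to 0.999).

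The block difference in CF pigs minus that in the other pigs ran, with 1 library left out, from −1.05 to −0.93 for GPD2, from −1.43 to −1.26 for SRGN and from −1.03 to −0.89 for SLC16A7. Where WT23 or WT22 was left out, the lone later WT library was taken to vary like the other groups.

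Counts of genes whose blocks do not overlap use no model, so the genotype, EIF1AY and library total terms give no value for them. No paired analysis was possible because no pig number occurs in both blocks. Counting sets a floor of 3 counts, from 0.0567 to 0.0912 CPM by library, and floors cover counting error only. Litter, age in hours, handling and sequencing run are not in the labels and cannot be told apart from the blocks.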

Other observations

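Apart from LYVE1, a member of the macrophage list, the genes named below were chosen after their values were seen. CCL21, a chemokine that lymphatic vessels secrete, read 7.09, 9.74 and 13.6 CPM in the earlier block (lowest, median and highest) and 1.27, 4.65 and 8.34 in the later one, a log2 fold of −1.23 ± 0.21. LYVE1, a hyaluronan receptor of lymphatic endothelium that some macrophages also make, had −0.80 ± 0.26, and the multimerins MMRN1 and MMRN2 −1.28 ± 0.26 and −0.77 ± 0.10. STAB2, a scavenger receptor for hyaluronan, read 4.02, 5.72 and 7.33 CPM earlier and 2.19, 3.28 and 4.24 later (−0.83 ± 0.11), and CAV1, which shapes caveolae, read 19.4, 31.9 and 44.2 CPM and 15.7, 17.97 and 21.3 (−0.81 ± 0.12). The later library was the higher in 0.769% of pairs for STAB2 and 2.31% for CAV1, so their blocks nearly parted.

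RBM3, an RNA-binding protein whose level is known to climb in mild cold, read 69.8, 130.4 and 164 CPM in the earlier block and 156, 188 and 280.4 in the later one (0.77 ± 0.12), with the later library higher in 99.2% of pairs. CIRBP, its cold-inducible relative, had 0.16 ± 0.07. DPYS, which degrades pyrimidines, read 24.1, 32.4 and 146 CPM and 60.3, 124 and 444 (1.58 ± 0.34), CF9 highest. ACSM2B, which activates medium-chain acids, read 63.2, 174 and 673 CPM and 383, 535 and 1372 (1.29 ± 0.32), again with CF9 highest. Its reads may be shared with close paralogs.

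PIGY and PYURF are made from 1 locus (chr8:130527571-130529983) and their counts cannot be read apart. In counts rounded to whole numbers, PYURF was 0 in all 13 earlier libraries and in CF11 and WT23. In the other 8 later libraries its rounded count equalled that of PIGY, so PYURF alone gives no fold. Their sum read 20.6, 27.0 and 34.8 CPM earlier and 32.5, 39.7 and 52.5 later, and these ranges overlap. Why the counts were split in 8 libraries was not tested.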
